A study of Rattus norvegicus with 18 samples.

Results

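The CXC and CX3C chemokine ligands measured here were the genes named Cxcl1, Cxcl2, Cxcl3, Cxcl6, Cxcl9, Cxcl11, Cxcl12, Cxcl14, Cxcl16 and Cx3cl1, found by name among the 22081 genes of the deposited tables. All 10 were present and all 10 had counts in each of the 18 rats. RNA was sequenced from pieces of the accessory lobe of the lung of male F344 rats, an inbred strain. The MWCNT rats had received MWNT-7, a rigid multiwalled carbon nanotube, at 0.5 mg/kg by intratracheal instillation every 4 weeks from 9 weeks of age. The control rats had received the vehicle (saline with Tween 80) on the same schedule, so both groups carried the instillations themselves. Lungs were taken at Years 0.5, 1 and 2 (weeks 26, 52 and 104), from 3 control and 3 MWCNT rats each time, and each rat gave 1 library. Tissue with visible tumor nodules had been left out, and smaller lesions may still lie in the pieces used.

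Chemokines are small secreted proteins that steer leukocytes through G protein-coupled receptors. Ligands with a Glu-Leu-Arg (ELR) motif before the CXC cysteines, here Cxcl1, Cxcl2, Cxcl3 and Cxcl6, act on Cxcr1 and Cxcr2 and recruit neutrophils, and resident macrophages and epithelium produce them when the lung is injured by particles. Cxcl9 and Cxcl11 are induced by interferons and draw activated T and NK cells through Cxcr3, whereas Cxcl12 and Cxcl14 are made in healthy tissue. Cxcl16 and Cx3cl1 (fractalkine) are unusual in being anchored in the membrane by a mucin-like stalk, from which proteases shed them, and they bind Cxcr6 and Cx3cr1.

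The libraries held 13297643 to 17868851 counts in control rats and 14661589 to 21130757 in MWCNT rats. Levels are given as TPM, a unit in which the authors corrected for the length of each gene, and differences as log2 fold changes of counts from edgeR with TMM normalization. A gene is said to have risen or fallen when its false discovery rate (FDR, Benjamini-Hochberg over all genes tested) was below 0.05, and is called a differentially expressed gene (DEG) when its log2 fold change also exceeded 1 in size, which is the criterion of the study. Among all DEGs the share that was higher in MWCNT rats was 66.7%, 60.0% and 49.9% at Years 0.5, 1 and 2, and 54.2%, 45.2% and 37.5% when only library sizes were used for scaling. Across all genes the median log2 fold change was then -0.12, -0.13 and -0.18, against -0.02, 0.00 and -0.01 with TMM, and on the TPM scale it was -0.15, -0.21 and -0.20, so a gene with an unchanged TMM value has a slightly lower TPM in MWCNT rats. Markers of alveolar type 2 cells summed to 27956 to 61124 TPM, as lung tissue should show. The labels do not say more of the rats of a group than their numbers, and the p-values measure the spread between these rats.

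Most of the ligands were higher in MWCNT rats at each time. Of the 10 ligands, 4 were higher DEGs at Year 0.5 (Cxcl1, Cxcl2, Cxcl6 and Cxcl11), beside 6.07% of all 14315 genes tested. At Year 1 there were 5 (Cxcl1, Cxcl2, Cxcl6, Cxcl11 and Cx3cl1), beside 6.13% of 14345 genes. At Year 2 the 5 higher DEGs were Cxcl1, Cxcl2, Cxcl3, Cxcl6 and Cx3cl1, beside 8.17% of 14361 genes, and Cxcl14 was a lower DEG, beside 8.22%. By the FDR alone 7, 7 and 6 ligands rose, beside 20.2%, 21.6% and 25.2% of all genes, and 1, 0 and 2 fell, beside 18.6%, 19.6% and 24% of all genes. All 10 passed the filter on low counts at each time. The median log2 fold change of the 10 was 0.92, 1.05 and 1.05. The count at Year 0.5 rested in part on 1 library: without control replicate 1 it was 2, because Cxcl1 (0.86, FDR = 0.0313) and Cxcl11 (1.67, FDR = 0.112) no longer met the criterion.

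**Figure D1:**
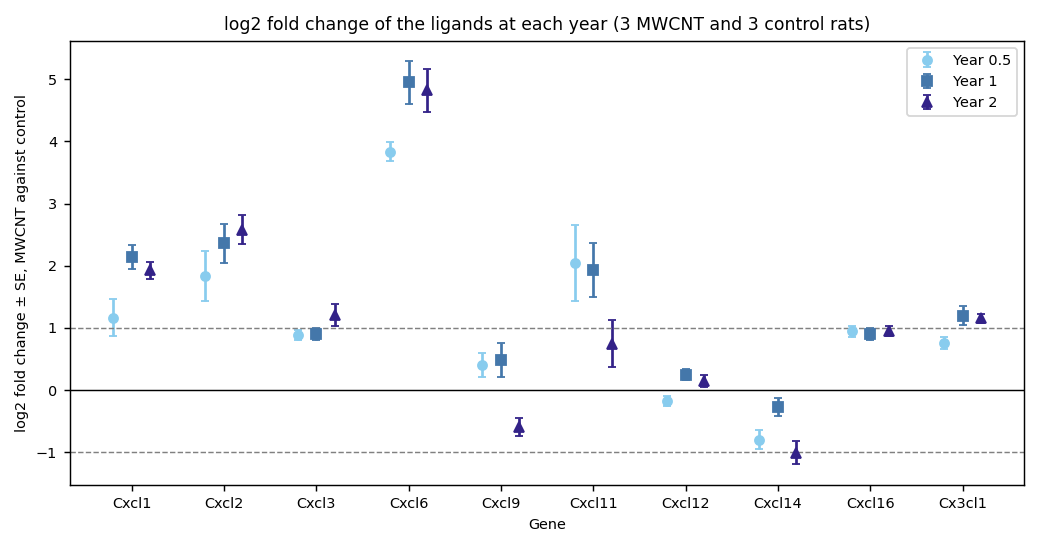
The log2 fold change of each ligand (y axis, MWCNT against control, edgeR, with its SE) at Years 0.5, 1 and 2, from 3 MWCNT and 3 control rats at each time. Dashed lines mark a size of 1. Cxcl6 lies near 4 to 5 at each time, Cxcl12 lies near 0, and Cxcl14 lies below 0.

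The neutrophil-attracting ligands lie in a cluster on chromosome 14. In the files (Rnor_6.0) Cxcl2 spans bases 18731378 to 18733391, Cxcl1 18743685 to 18745457, Cxcl3 18820168 to 18839595 and Cxcl6 18860264 to 18862407, all on the minus strand, with the platelet chemokine genes Pf4 and Ppbp between Cxcl3 and Cxcl6. Promoters in RefSeq were matched for 9 of the 10 ligands. The 120 bases before the start of Cxcl1, Cxcl2 and Cxcl6 are shown because these 3 genes were higher DEGs at each time and lie in the same cluster; capitals mark the longest runs of bases that all 3 windows share, ATAAAAG and ATTTCCC, each of 7 bases and read on the strand of the gene. They were read from GRCr8, a newer build than that of the files, at chr14:17479322-17479441, minus strand (Cxcl1), chr14:17467256-17467375, minus strand (Cxcl2) and chr14:17596418-17596537, minus strand (Cxcl6).
Cxcl1: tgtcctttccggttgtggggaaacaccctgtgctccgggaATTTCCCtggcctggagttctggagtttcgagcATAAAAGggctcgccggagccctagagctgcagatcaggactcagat
Cxcl2: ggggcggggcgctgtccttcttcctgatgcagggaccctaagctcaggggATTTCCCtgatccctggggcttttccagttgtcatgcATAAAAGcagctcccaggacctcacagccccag
Cxcl6: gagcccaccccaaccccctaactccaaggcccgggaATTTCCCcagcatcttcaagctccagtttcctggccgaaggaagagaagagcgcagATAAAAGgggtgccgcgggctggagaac

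The runs were found by comparing these 3 windows with each other, so their presence in the 3 is no finding. ATTTCCC began 80, 70 and 84 bases before the start of Cxcl1, Cxcl2 and Cxcl6, and in each it stood directly after a run of G or 1 base after it, as in many sites of NF-κB, a factor that switches on inflammatory genes. ATAAAAG began 47, 33 and 28 bases before the start and has letters like those of a TATA box. With both strands searched in the 250 bases before the start, ATTTCCC occurred in 1623 of 33469 RefSeq rat promoters (4.85%) and ATAAAAG in 1730 (5.17%). Of the other 6 matched ligands, Cxcl11 held ATTTCCC and none held ATAAAAG. A match of letters is a description of the sequence and no evidence that a factor was bound there.

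Cxcl6, which RefSeq also lists as Cxcl5 and which is a potent epithelial attractant of neutrophils, had the largest log2 fold change of the 10 ligands at each time. Its TPM in control rats was 2.07, 1.95 and 1.75 at Year 0.5, 2.04, 1.24 and 1.32 at Year 1, and 1.25, 0.573 and 2.70 at Year 2. MWCNT rats had 26.8, 25.9 and 22.3 at Year 0.5, 59.1, 34.4 and 27.1 at Year 1, and 35.5, 29.2 and 44.3 at Year 2 TPM. The lowest MWCNT rat stood far above the highest control rat, 22.3 against 2.70 TPM. The log2 fold change was 3.84 (SE 0.16, FDR = 2.76e-06) at Year 0.5, 4.95 (SE 0.35, FDR = 1.63e-05) at Year 1 and 4.82 (SE 0.35, FDR = 7.70e-06) at Year 2, that is 14.3-fold, 30.9-fold and 28.3-fold. The low control values (7 to 30 counts) make the size of the fold less certain than its direction: its 95% interval at Year 2 was 4.03 to 5.61 on the log2 scale.

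Cxcl1, the chief neutrophil chemoattractant of the rat, was far more abundant than Cxcl6 in control rats. Control rats had 19.1, 54.9 and 31.0 at Year 0.5, 32.4, 18 and 24.0 at Year 1, and 30.1, 23.4 and 34.5 at Year 2 TPM. MWCNT rats had 80.7, 60.0 and 71.7 at Year 0.5, 108, 87.5 and 83.7 at Year 1, and 91.9, 104 and 92.1 at Year 2 TPM. The groups did not overlap at any time, but at Year 0.5 control replicate 2 (54.9 TPM) came close to MWCNT replicate 2 (60.0 TPM). This gave a log2 fold change of 1.17 (SE 0.31, FDR = 0.0155) at Year 0.5, 2.14 (SE 0.20, FDR = 7.01e-05) at Year 1 and 1.93 (SE 0.14, FDR = 6.36e-06) at Year 2.

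Cxcl2, a ligand of Cxcr2 made by activated macrophages, was a low-abundance message that rose at each time. Its TPM in control rats was 1.12, 2.55 and 2.65 at Year 0.5, 2.42, 1.25 and 2.11 at Year 1, and 1.77, 2.73 and 2.18 at Year 2. MWCNT rats had 8.99, 4.16 and 7.35 at Year 0.5, 9.84, 9.17 and 6.31 at Year 1, and 11.6, 10.8 and 12.2 at Year 2 TPM. Each MWCNT rat lay above each control rat, and the lowest MWCNT value, 4.16 TPM, was that of replicate 2 at Year 0.5, the rat that was also lowest for Cxcl1 at that time. In the edgeR test the log2 fold change was 1.84 (SE 0.40, FDR = 0.00651) at Year 0.5, 2.36 (SE 0.31, FDR = 0.000504) at Year 1 and 2.58 (SE 0.23, FDR = 2.75e-05) at Year 2, from 10 to 22 counts in control rats and 49 to 109 in MWCNT rats.

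Cxcl3 had the highest level of the 10 ligands in each of the 6 groups and a more modest difference. Control rats had 441, 372 and 448 at Year 0.5, 468, 487 and 474 at Year 1, and 194, 222 and 323 at Year 2 TPM. MWCNT rats had 706, 727 and 681 at Year 0.5, 804, 779.9 and 681 at Year 1, and 555, 421 and 489 at Year 2 TPM. The groups did not overlap at any time, while at Year 2 levels were lower than at Year 0.5 in both treatments. Its log2 fold change was 0.89 (SE 0.08, FDR = 7.67e-05) at Year 0.5, 0.90 (SE 0.09, FDR = 0.000120) at Year 1 and 1.21 (SE 0.17, FDR = 0.000429) at Year 2, so it rose at each time and was a DEG only at Year 2 by this criterion. Over the mean of the 3 years it was 1.00 (SE 0.08, FDR = 1.03e-08), at the edge of the criterion, and between 0.96 and 1.08 when each rat was left out.

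The Cxcl3 entry of the files needs a caution. It spans 19428 bases, while the entries of Cxcl1, Cxcl2 and Cxcl6 span 1773, 2014 and 2144. In RefSeq for GRCr8 another protein-coding gene, LOC134481726, stands next to Cxcl3 on the side of Cxcl1, and the files hold no gene between Cxcl1 and Cxcl3. Which transcripts inside the long entry gave its counts was not tested. Cxcl1, Cxcl2 and Cxcl3 are also paralogs, and how reads that match several genes were counted is not given in the sources used here, so the split of counts among these 3 is uncertain.

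With that caution, Cxcl3 made up 91.4% ± 4.64 (SD, n = 3 rats) of the summed TPM of the 4 ELR ligands in control rats at Year 0.5, 94.4% ± 1.65 at Year 1 and 87.9% ± 2.16 at Year 2. The shares in MWCNT rats were 87.3% ± 1.58, 84.3% ± 2.01 and 77.1% ± 2.73. The other ELR ligands, Cxcl1, Cxcl2 and Cxcl6, summed to 39.0, 28.3 and 33.0 TPM in control rats and to 103, 142 and 144 TPM in MWCNT rats. The sum of all 10 ligands was 761 ± 13.8, 783 ± 10.6 and 591 ± 77.3 TPM in control rats (mean ± SD) and 1204 ± 37.7, 1289.9 ± 111 and 1049 ± 77.6 TPM in MWCNT rats at Years 0.5, 1 and 2. Most of the difference in that sum was Cxcl3 and Cxcl16, whose means were higher by 284 and 96.1 TPM at Year 0.5, 279 and 78.5 TPM at Year 1, and 242 and 102 TPM at Year 2.

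**Figure D2:**
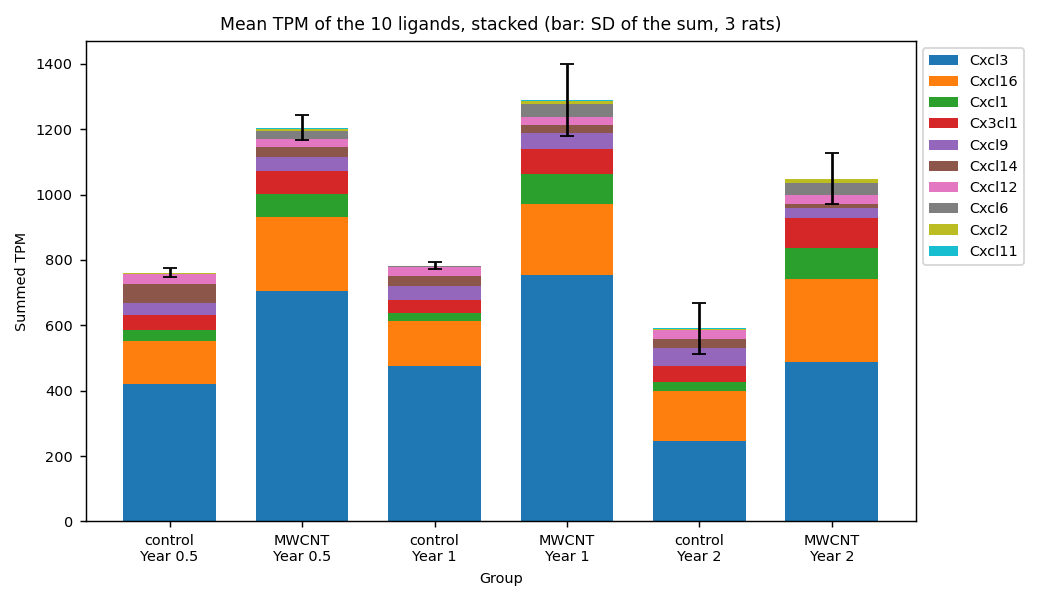
Stacked mean TPM of the 10 ligands (y axis, from 0) in the 6 groups, with the SD of the sum over 3 rats. Cxcl3 is the largest block in each bar, and the MWCNT bars reach 1204, 1289.9 and 1049 TPM against 761, 783 and 591 in control rats.

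In the order of levels, Cxcl3 came first and Cxcl16 second in each group, without overlap between their rats. In control rats at Year 0.5 Cxcl14 (57.9 ± 8.36 TPM, SD, n = 3) came next and was followed by Cx3cl1 (44.9), Cxcl9 (36.7), Cxcl1 (35.0) and Cxcl12 (31.4). Among these 4 each ligand overlapped its neighbor in the order. Cxcl2 (2.11), Cxcl6 (1.92) and Cxcl11 (0.684) were lowest, and the ranges of Cxcl2 and Cxcl6 overlapped. In MWCNT rats at Year 2 Cxcl1 (95.9 ± 6.80 TPM) and Cx3cl1 (90.8 ± 2.13 TPM) stood at ranks 3 and 4 with overlapping ranges. Cxcl6 (36.4 TPM) stood at rank 5 and overlapped Cxcl9, and Cxcl14 (11.2 TPM) stood at rank 9 and overlapped Cxcl2. In control rats of that time Cxcl6 stood at rank 10 and Cxcl14 at rank 7, each overlapping a neighbor. Between control rats at Year 0.5 and MWCNT rats at Year 2 both time and treatment differed.

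**Figure D3:**
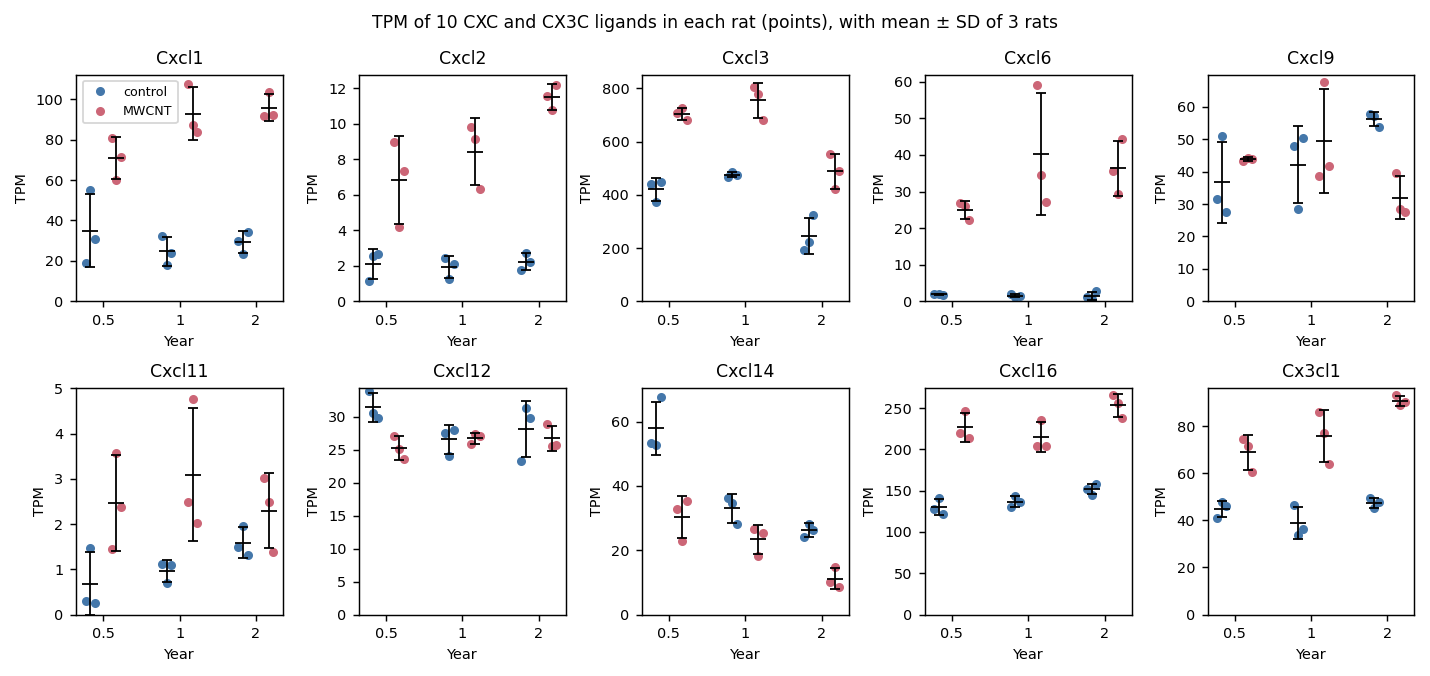
TPM of each ligand (y axes from 0, with separate scales) in each rat by year, control rats in blue and MWCNT rats in red, with the mean and SD of 3 rats. Cxcl1, Cxcl2, Cxcl3, Cxcl6, Cxcl16 and Cx3cl1 show no overlap between the treatments at any time, while the rats of Cxcl9 overlap at Year 0.5 and Year 1. On TPM, 17%, 15% and 18.1% of all genes tested lay entirely above control rats at Years 0.5, 1 and 2.

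Counted on CPM with TMM factors, which are not divided by gene length, the 3 MWCNT rats lay above the 3 control rats for 7 ligands at Year 0.5, 8 at Year 1 and 6 at Year 2. Among all genes tested the share was 26.2%, 28.5% and 30.4%. They lay entirely below for Cxcl14 at Year 0.5, for no ligand at Year 1, and for Cxcl9 and Cxcl14 at Year 2. The shares of all genes that did so were 25.6%, 26.4% and 29.4%. On TPM, 6, 7 and 6 ligands lay entirely above, beside 17%, 15% and 18.1% of all genes. The ligands entirely below on TPM were 2, 1 and 2, beside 40.7%, 46.8% and 45.7% of all genes.

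The Cxcr3 ligands did not move together. Cxcl11, the ligand with the highest affinity for Cxcr3, was the scarcest of the 10 in each group but the control rats of Year 2, at 3 to 71 counts a library. Control rats had 0.309, 1.48 and 0.261 at Year 0.5, 1.11, 0.690 and 1.09 at Year 1, and 1.48, 1.96 and 1.32 at Year 2 TPM. MWCNT rats had 1.45, 3.57 and 2.37 at Year 0.5, 2.49, 4.77 and 2.02 at Year 1, and 3.01, 2.50 and 1.39 at Year 2 TPM. On that scale the treatments overlapped at Year 0.5 and Year 2 and were separate at Year 1. The log2 fold change was 2.04 (SE 0.62, FDR = 0.0282) at Year 0.5, 1.93 (SE 0.44, FDR = 0.00743) at Year 1 and 0.74 (SE 0.38, FDR = 0.132) at Year 2. The call at Year 0.5 was lost when control replicate 1 or 3 or MWCNT replicate 2 or 3 was left out, with FDR between 0.055 and 0.115. The Cxcl11 entry (chromosome 14, bases 17195014 to 17198291, plus strand) lies wholly inside the span of Art3, a gene on the other strand. Exons were not compared, and strand use in counting is not given in the sources used here. Whether reads of Art3 were counted for Cxcl11 was therefore not tested. Art3 itself had log2 fold changes of -0.95, -0.72 and -1.18, in the other direction.

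Cxcl9 is an interferon gamma target that lies near Cxcl11 on chromosome 14 (bases 17228856 to 17234712). Its TPM in control rats was 31.4, 51.0 and 27.7 at Year 0.5, 47.8, 28.6 and 50.3 at Year 1, and 57.8, 57.3 and 53.8 at Year 2. MWCNT rats had 43.2, 44.3 and 44.0 at Year 0.5, 38.7, 67.8 and 41.7 at Year 1, and 39.7, 28.6 and 27.7 at Year 2 TPM. The treatments overlapped at Year 0.5 and Year 1, with MWCNT replicate 2 at Year 1 (67.8 TPM) the highest of all 18 rats, and at Year 2 each MWCNT rat lay below each control rat. Against control rats the log2 fold change was 0.40 (SE 0.20, FDR = 0.139), 0.48 (SE 0.28, FDR = 0.193) and -0.60 (SE 0.15, FDR = 0.00857) at Years 0.5, 1 and 2, so it fell at Year 2 only by the FDR and was no DEG. Without control replicate 2, the Year 0.5 value was 0.72 with an FDR of 0.00134. Cxcl10, the third Cxcr3 ligand, had log2 fold changes of 1.5 (SE 0.38, FDR = 0.0133) at Year 0.5, 1.23 (SE 0.46, FDR = 0.0576) at Year 1 and 0.75 (SE 0.23, FDR = 0.0244) at Year 2.

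Rats high in Cxcl9 within their group tended to be high in Cxcl11 as well. The correlation of deviations from the group means of log2 CPM over the 18 rats was 0.81. Both also went with Cxcl16 (0.61 for Cxcl9 and 0.71 for Cxcl11), and the values of Cxcl9 with the other ligands ran from -0.42 (Cxcl14) to 0.49 (Cxcl1 and Cxcl12). These are descriptions, since both values of a rat come from the same library.

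Cxcl12 holds stem cells and leukocytes in tissue through Cxcr4, and it was the steadiest ligand. Its entry is on chromosome 4 (bases 149261044 to 149273891). Control rats had 33.9, 30.6 and 29.8 at Year 0.5, 27.6, 24.0 and 28.1 at Year 1, and 23.4, 31.3 and 29.9 at Year 2 TPM. MWCNT rats had 27.1, 25.1 and 23.6 at Year 0.5, 25.8, 27.4 and 27.0 at Year 1, and 28.9, 25.6 and 25.8 at Year 2 TPM. Across both treatments the values stayed between 23.4 and 33.9 TPM, and on the TPM scale the treatments were apart only at Year 0.5. MWCNT rats then lay below, as 40.7% of all genes tested did on that scale. On CPM with TMM factors the treatments overlapped at Year 0.5. There MWCNT rats lay entirely above at Year 1, as for 28.5% of all genes. Differences were small, with a log2 fold change of -0.17 (SE 0.08, FDR = 0.121) at Year 0.5, 0.25 (SE 0.09, FDR = 0.0596) at Year 1 and 0.15 (SE 0.10, FDR = 0.264) at Year 2. The 95% interval of the mean over the 3 years, -0.05 to 0.19, leaves out a change as large as that of any ligand that rose. Its direction depended on scaling: at Year 2 it was -0.03 with library sizes alone.

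Cxcl14, an epithelial chemokine of healthy tissue (chromosome 17, bases 9109731 to 9117750), was the ligand with a negative log2 fold change at each time, and its level was also lower in older rats. Its TPM in control rats was 53.5, 52.6 and 67.5 at Year 0.5, 36.3, 34.7 and 28.0 at Year 1, and 24.0, 28.3 and 26.4 at Year 2. MWCNT rats had 32.9, 22.9 and 35.2 at Year 0.5, 26.5, 18.2 and 25.4 at Year 1, and 9.96, 14.9 and 8.63 at Year 2 TPM. The highest single value was control replicate 3 at Year 0.5 (67.5) and the lowest MWCNT replicate 3 at Year 2 (8.63). On the TPM scale each MWCNT rat lay below each control rat of its time, as for 40.7%, 46.8% and 45.7% of all genes tested. On CPM with TMM factors the treatments overlapped for Cxcl14 at Year 1. Its log2 fold change was -0.80 (SE 0.15, FDR = 0.00374) at Year 0.5, -0.27 (SE 0.14, FDR = 0.162) at Year 1 and -1.01 (SE 0.19, FDR = 0.00180) at Year 2. At Year 1 the difference did not pass the test, and at Year 2 it met the fold limit narrowly: without control replicate 2, MWCNT replicate 1 or MWCNT replicate 3 it was -0.97, -0.95 or -0.84.

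Cxcl16, a scavenger receptor as well as a chemokine (chromosome 10, bases 57060007 to 57064600), rose by nearly the same amount at each time. Control rats had 128, 141 and 122 at Year 0.5, 130.1, 144 and 136 at Year 1, and 152, 145 and 158 at Year 2 TPM. MWCNT rats had 219, 247 and 213 at Year 0.5, 204, 236 and 205 at Year 1, and 265, 257 and 238 at Year 2 TPM. The lowest MWCNT rat of all times (204 TPM) was above the highest control rat of all times (158 TPM). The rise was steady, with a log2 fold change of 0.94 (SE 0.09, FDR = 8.08e-05) at Year 0.5, 0.90 (SE 0.10, FDR = 0.000186) at Year 1 and 0.96 (SE 0.08, FDR = 1.63e-05) at Year 2, which is just under the fold limit each time, so that Cxcl16 was no DEG. It met the limit without control replicate 2 or MWCNT replicate 3 at Year 0.5 (both 1.01) and without MWCNT replicate 3 at Year 2 (1.01). The 119 bases at its 5′ end overlap the start of Zmynd15 on the other strand, whose log2 fold changes were 0.78, 0.44 and 0.75.

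Cx3cl1, which endothelium and epithelium display to capture monocytes (chromosome 19, bases 10644244 to 10653800), also separated the treatments in full. Control rats had 41.1, 47.7 and 46.1 at Year 0.5, 46.6, 33.7 and 36.4 at Year 1, and 49.3, 45.3 and 47.7 at Year 2 TPM. MWCNT rats had 74.5, 71.5 and 60.5 at Year 0.5, 85.8, 77.1 and 64.0 at Year 1, and 93.1, 89.0 and 90.3 at Year 2 TPM. The 3 MWCNT rats of Year 2 were within 89.0 to 93.1 TPM, and the highest control rat of all times had 49.3 TPM. Tested on counts, the log2 fold change was 0.76 (SE 0.10, FDR = 0.000437) at Year 0.5, 1.20 (SE 0.15, FDR = 0.000425) at Year 1 and 1.15 (SE 0.08, FDR = 4.47e-06) at Year 2. With library sizes alone the Year 2 value was 0.98, and on log2(TPM + 1) the values of Year 1 and Year 2 were 0.94 and 0.92, all with an FDR below 0.05 but under the fold limit.

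The model of all 18 rats asked whether the effect of MWCNT differed between times. For none of the 10 ligands did the effect at Year 2 differ from that at Year 0.5 at an FDR below 0.05, where 1.31% of 14843 genes did. By unadjusted p, 3 ligands were below 0.05 in this edgeR test: Cxcl9 (difference -0.99, SE 0.37, FDR = 0.223), Cxcl12 (0.32, SE 0.14, FDR = 0.305) and Cx3cl1 (0.40, SE 0.18, FDR = 0.335). For Cxcl6 the difference was 0.99 with a 95% interval of -0.14 to 2.13, and for Cxcl11 -1.28 with an interval of -2.91 to 0.34, so a change of effect of several fold was not detectable as present or absent with 3 rats a group. For Cxcl16 the interval was narrow, -0.26 to 0.30. Between Year 1 and Year 0.5 none passed (0% of all genes) in the edgeR test, while 3 of the ligands had an unadjusted p below 0.05. DESeq2 and limma also called 0 ligands in both differences. That comparison shares the Year 0.5 rats with the former. Averaged over the 3 times, 6 ligands were higher DEGs (Cxcl6, Cxcl2, Cxcl1, Cxcl11, Cx3cl1 and Cxcl3), beside 7.72% of all genes, with log2 fold changes of 4.54, 2.26, 1.74, 1.57, 1.04 and 1.00. Cx3cl1 and Cxcl3 were close to the fold limit, and with library sizes alone the count was 4.

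Between Year 0.5 and Year 2, 2 ligands passed the FDR in control rats and 3 in MWCNT rats, beside 987 and 2006 of all 14843 genes. By unadjusted p in the edgeR test, 4 and 6 ligands were below 0.05. In control rats Cxcl14 was lower at Year 2 than at Year 0.5, by a log2 fold change of -1.13 (SE 0.18, FDR = 0.00227), and was the only ligand among the DEGs, where 0.182% of all genes were lower DEGs. Cxcl3 fell as well, with -0.77 (SE 0.14, FDR = 0.00566), short of the fold limit, where 4% of all genes fell. In MWCNT rats Cxcl14 was again the only DEG, at -1.34 (SE 0.19, FDR = 0.000237), where 0.903% of all genes were lower DEGs, Cxcl3 fell with -0.44 (SE 0.14, FDR = 0.0451) and Cx3cl1 rose with 0.48 (SE 0.13, FDR = 0.0169), where 6.87% of all genes fell and 6.65% rose. Without control replicate 2 of Year 0.5 the controls had 2 DEGs in place of 1. From Year 0.5 to Year 1 no ligand passed the FDR in either treatment, where 0% (control) and 0.101% (MWCNT) of all genes did. Rats of the 3 times were necropsied at different dates and had received more instillations at each later time. Age therefore cannot be told apart from those dates, from the number of instillations or, in MWCNT rats, from the cumulative dose.

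None of the 7 measured receptors was a DEG at any time, where 3.03%, 4.09% and 8.22% of all genes were lower DEGs and the shares of higher ones were those given above. By the FDR 2, 2 and 3 receptors rose and 1, 2 and 2 fell at Years 0.5, 1 and 2, and their median log2 fold change was 0.06, 0.16 and 0.22. Cxcr1, a receptor of the ELR ligands, rose at each time, with log2 fold changes of 0.70 (SE 0.15, FDR = 0.00598) at Year 0.5, 0.65 (SE 0.12, FDR = 0.00269) at Year 1 and 0.66 (SE 0.17, FDR = 0.00990) at Year 2, whereas for Cxcr2, the main neutrophil receptor for Cxcl1 to Cxcl3, they were 0.06 (SE 0.18, FDR = 0.824) at Year 0.5, 0.35 (SE 0.18, FDR = 0.150) at Year 1 and 0.38 (SE 0.28, FDR = 0.281) at Year 2. Cxcr3 had 0.18, -0.05 and -0.74 and fell at Year 2 (FDR = 0.00977), the time at which Cxcl9 fell. Cxcr4, the receptor of Cxcl12, had -0.16, 0.16 and 0.22 and passed the FDR at Year 2 (FDR = 0.0325). Its mean TPM at Year 2 was 109.9 in control rats and 110.1 in MWCNT rats, so no rise was seen on that scale. Ackr3, which scavenges Cxcl11 and Cxcl12, fell at each time, -0.54, -0.49 and -0.54, from 132 to 161 TPM in control rats to 82.9 to 102 TPM in MWCNT rats. Cxcr6, the receptor of Cxcl16, had -0.07, -0.68 and -0.77 and fell at Year 1 only (FDR = 0.0282; FDR = 0.0641 at Year 2), while its ligand rose at each time. Cx3cr1, the receptor of Cx3cl1 on monocytes and macrophages, rose at each time, 0.81, 0.95 and 0.66, from 15.2 to 19.9 to 21.8 to 31.4 TPM.

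**Figure D4:**
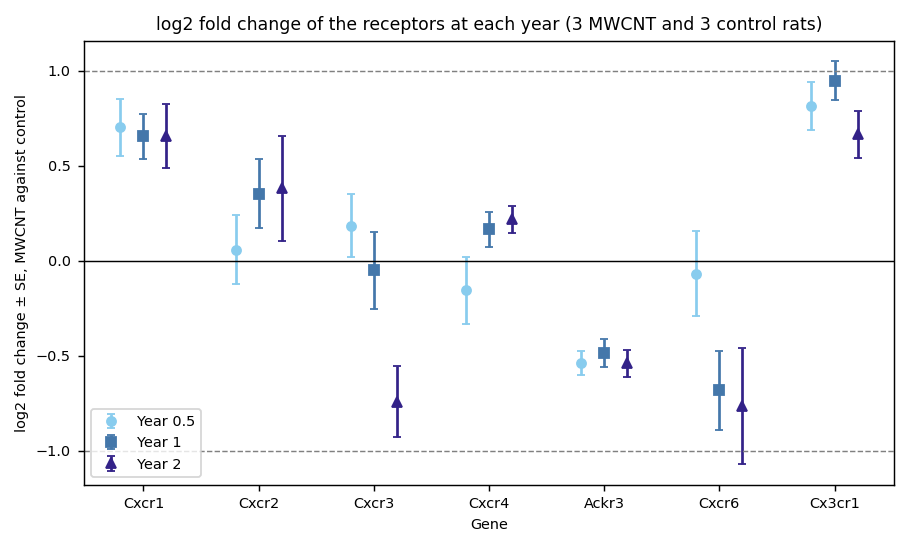
The log2 fold change with SE of 7 receptors of the ligands (y axis, MWCNT against control, edgeR) at each year, from 3 MWCNT and 3 control rats at each time. Dashed lines mark a size of 1, which no receptor passes. Cxcr1 and Cx3cr1 lie above 0 and Ackr3 below 0 at each time.

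Of the other CXC and XC ligands, 5, 5 and 4 of 6 were tested and 2, 1 and 1 were higher DEGs. Pf4, a platelet and macrophage chemokine of the same cluster, rose with 1.47, 1.84 and 1.92, from 31.2 to 45.9 TPM in control rats to 99.1 to 136 TPM in MWCNT rats. Cxcl17, a mucosal chemokine, had 0.92, 0.63 and 0.22 and rose at Year 0.5 and Year 1. Cxcl13, which organizes B cell follicles, had 0.33, 1.29 and 0.52 and did not pass the test at any time.

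Of 6 cytokines that induce these ligands, 3 passed the filter on low counts at each time, and none of these was a DEG at that time. They were Il1a and Il1b with Lta at Year 0.5 and with Tnf at Year 1 and Year 2. Il1b had log2 fold changes of 0.23, 0.31 and -0.22 with an FDR of 0.455, 0.253 and 0.132. Il1a had -0.05, 0.37 and 0.13. Tnf was erratic, with 0 to 110 counts in a library and high and low rats in 5 of the 6 groups. It was not tested at Year 0.5, where control rats had 0 to 1 counts and MWCNT rats 1 to 110. Its log2 fold change was 1.26 (SE 1.11, FDR = 0.386) at Year 1 and 1.60 (SE 1.33, FDR = 0.346) at Year 2, while over the mean of the 3 years it was a higher DEG, with 3.28 (SE 1.15, FDR = 0.0187). Il17a had at most 3 counts and Ifng at most 5 counts in any library, so no difference was detectable at this depth. Of 6 genes of NF-κB feedback and message stability, Zc3h12a, a ribonuclease that destroys inflammatory messages, was a DEG at Year 1 and Year 2, with log2 fold changes of 0.94, 1.40 and 1.01. Nfkbiz, a co-activator of NF-κB, rose at each time, 0.68, 0.50 and 0.38, and Nfkbia, its inhibitor, had -0.06, -0.29 and 0.03 and did not pass the test. By the FDR 2 of the 6 rose at each time, while 1, 0 and 1 fell. The median log2 fold change of the 6 was 0.04, 0.08 and -0.06. Mean TPM of Zfp36 was 467, 412 and 340 in control rats and 356, 260 and 262 in MWCNT rats. For Zfp36l1 it was 270, 210 and 259 against 198, 165 and 188, and for Tnfaip3 24.7, 21.0 and 30.3 against 24.5, 21.5 and 23.4.

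Of 9 tested genes of the interferon gamma response, 2 rose at each time by the FDR, while 2, 1 and 6 fell, and the median log2 fold change was -0.21, -0.26 and -0.48, beside -0.02, 0.00 and -0.01 for all genes. Gbp5, a guanylate-binding protein, was a lower DEG at Year 2, with log2 fold changes of -0.73, -0.37 and -1.29, and Irf1, a transcription factor of the response, had -0.55, -0.32 and -0.79. Ciita, the master regulator of MHC class II that antigen-presenting cells also express without interferon, was a higher DEG at Year 0.5 and Year 2, 1.24, 0.87 and 1.43. Cxcl9 also fell at Year 2.

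Of the 6 proteases that process the ligands, 1, 2 and 2 were higher DEGs, beside 6.07%, 6.13% and 8.17% of all genes. By the FDR 2, 3 and 4 rose, beside 20.2%, 21.6% and 25.2% of all genes. At the same times 0, 0 and 1 fell, beside 18.6%, 19.6% and 24%. Mmp12, the macrophage elastase, which trims the ELR ligands, rose from 4.03 to 8.91 TPM in control rats to 203 to 414 TPM in MWCNT rats, with log2 fold changes of 5.71, 5.99 and 6.22. Mmp9 had 0.46, 1.12 and 2.35 and was a DEG at Year 1 and Year 2. Adam17, a sheddase of Cx3cl1, rose at each time, 0.57, 0.62 and 0.74, and Adam10, a sheddase of Cxcl16 and Cx3cl1, had 0.14, 0.07 and 0.32 and rose at Year 2. Dpp4 fell at Year 2, when its mean was 77.5 TPM in control rats and 54.4 TPM in MWCNT rats. Mmp8 did not pass the test at any time.

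Cell type markers moved with the treatment, and in whole tissue more cells of a type and more RNA per cell cannot be told apart. Of 9 macrophage markers 7, 6 and 8 were higher DEGs, and their summed TPM was 319.7 to 411 in control rats and 1002 to 1804 in MWCNT rats. Of 10 neutrophil markers 7 were tested, and of these S100a9 was a higher DEG at each time and S100a8 at Year 1 and Year 2. Both also occur in macrophages and epithelium. Csf3r, Cxcr2, Mmp8, Ngp and Camp, which are closer to neutrophils alone, did not pass the test at any time, with log2 fold changes for Csf3r of -0.06, -0.14 and -0.17, and Mpo and Elane had at most 3 counts in any library. The 7 alveolar type 2 markers rose at each time except Slc34a2 at Year 1 (median 0.86, 0.89 and 1.00), and the 7 measured endothelial markers, Cdh5 among them, had medians of -0.84, -0.74 and -1.41. T and NK cell markers had medians of -0.54, -0.67 and -1.36, with 6 of 10 lower DEGs at Year 2, the time at which Cxcl9 and Cxcr3 fell. Cd4, which rat macrophages also carry, was a higher DEG on that list at each time (1.17, 1.18 and 1.81). Among the B and plasma cell markers, Jchain was a higher DEG at each time. The medians were -0.89, -0.45 and -0.59 for this list, -0.32, -0.38 and -0.03 for 7 fibroblast markers, -0.49, -0.44 and -0.89 for 5 alveolar type 1 markers, and -0.54, -0.48 and -0.26 for 3 airway markers. Heart muscle markers summed to 72.9 to 669.9 TPM in control rats and 15.6 to 202 TPM in MWCNT rats, and all 6 were lower DEGs at Year 0.5. The part of these shifts in the ligand values was not tested.

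The genes whose log2 CPM was most like that of a ligand over the 18 rats were named by the highest Pearson correlation, which the shared treatment groups raise for all of them. For Cxcl1 they were Ccl2, a monocyte chemokine (0.96), and Slc12a9 (0.96), and for Cxcl2 Csf2rb, a receptor subunit of GM-CSF (0.97), and Ncf1, a subunit of the phagocyte oxidase (0.96). The 2 for Cxcl6 were Idh1 and the lysosomal protease Ctsd (both 0.99), and for Cxcl3 Enpp2 and Cybrd1 (both 0.97). The 2 for Cxcl9 were the MHC class I genes RT1-CE7 (0.89) and RT1-CE5 (0.86), and for Cxcl11 MGC108823 (0.92) and RT1-A1 (0.90). For Cxcl16 they were the MHC class II gene RT1-DMa and Fxyd5 (both 0.99), for Cx3cl1 Tnfaip2 and Micall2 (both 0.98), for Cxcl14 Phex (0.92) and Cyp26b1 (0.91), and for Cxcl12 Rab4a (0.78) and Nup43 (0.71). When the group means were taken out, the correlations of these pairs ran from 0.47 (Cxcl2 with Ncf1) to 0.93 (Cxcl3 with Enpp2). Among the higher were 0.84 for Cxcl1 with Ccl2 and 0.89 for Cxcl9 with RT1-CE7. Among the lower were 0.50 for Cxcl12 with Nup43, and 0.63 and 0.60 for Cxcl6 with Idh1 and Ctsd. Among the ligands themselves, within groups Cxcl1 went with Cxcl2 (0.66) and not with Cxcl3 (-0.09), though the 3 are neighbors in the cluster.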

How the data were processed

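Total RNA of tumor-free accessory lobe tissue was made into libraries with NEBNext Ultra II and sequenced on an Illumina instrument. The authors mapped the reads in CLC Genomics Workbench to the rat genome (Rnor 6.0 per the labels) and deposited total counts and TPM per gene; strand setting and treatment of multi-mapping reads are not given in the sources used here. The deposited TPM values, scaled by the authors for gene length, gave levels. The deposited counts, which are not normalized, were tested with edgeR 4.0.16 in R 4.3.3 (filterByExpr defaults, a minimum count of 10 and minimum total of 15; TMM; quasi-likelihood F test), on the 6 rats of a year or on all 18 rats with a mean per treatment and year. Alternatives used DESeq2 1.42.0, limma 3.58.1 on log2(TPM + 1) and log2(TPM + 0.1), other filters and factors, a block by replicate number, and each rat left out. Files also hold RPKM, TMM-adjusted CPM and the authors' own fold changes and p-values, which were not used.

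Members, gene lists and markers were chosen with earlier results of these data known. The text names all members, all receptors measured, genes of the context lists that were DEGs, the 2 genes most like each member, and, chosen after their values were seen, Il1b, Il1a, Lta, Tnf, Il17a, Ifng, Cxcl13, Cxcl17, Nfkbiz, Nfkbia, Zfp36, Zfp36l1, Tnfaip3, Irf1, Adam17, Adam10, Dpp4, Mmp8, Art3, Zmynd15 and single markers. Names absent from the files were Ackr1, Chil3, Pecam1, Col1a2, Foxj1 and Muc5ac. Replicate pairs differed beyond sampling noise (chi-square per degree of freedom 6.24 to 20.3). The fits of MWCNT against control recovered known changes in simulated data. Those changes were larger than most of the ligands' and were not planted in the scarcest genes. Recovery of smaller changes and the power of the test between times were not tested. Counts and their precision cover counting error and the spread of 3 rats. Rats with the same number in their sample titles did not deviate together, so these numbers were taken as names only. They are not always the animal numbers, which were not compared. CPM was computed with TMM factors. Promoters were read from RefSeq (GRCr8) with Python 3.11.15.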

Additional observations from a re-analysis of the deposited data

How the results depend on the processing

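The counts of ligands called kept within 1.5 times of the reported count in 88 of 93 recomputations, a limit that lets 6 become 4. The count over the mean of the 3 years was 3 in place of 6 with at least 10 counts in every rat and with limma on log2(TPM + 1). It was 4 with library sizes alone, upper quartile factors or limma on log2(TPM + 0.1), and 5 with DESeq2. In the first 3 of these Cx3cl1 (0.90, 0.99 and 0.84) and Cxcl3 (0.86, 0.95 and 0.81) were under the fold limit. With DESeq2 Cxcl3 was (0.999). The filter on 10 counts removed Cxcl6 and Cxcl11 from the test and left Cxcl3 at 0.998. With the FDR alone the count was 8 in place of 4 at Year 0.5, and 2 and 3 in place of 1 for Year 2 against Year 0.5 in control and in MWCNT rats. Leaving out each rat gave counts of 2 to 5 at Year 0.5, 5 to 5 at Year 1, 5 to 6 at Year 2, 5 to 6 over the mean of the 3 years, and 1 to 2 for Year 2 against Year 0.5 in control rats. Values that changed sign were all small: Cxcl12 at Year 2 (-0.026 with library sizes, -0.063 and -0.065 with limma) and over the mean of the 3 years (-0.063, -0.12 and -0.12), Cxcl9 over the mean of the 3 years (-0.045, -0.098 and -0.10, and -0.024 to 0.20 with rats left out), and the Cxcl16 difference between Year 2 and Year 0.5 (-0.0043 without a filter, -0.0034 with upper quartile factors, -0.054 with library sizes, -0.057 and -0.057 with limma, and -0.055 to 0.10 with rats left out). The cause was not tested. With the replicate number as a block within each year the counts were 4, 5, 6 and 6 for the 3 years and their mean and 0 for the differences between years; the correlation of same-numbered rats ranged from -0.15 to 0.11. Effects of time within a treatment could not be fitted with that block. Depth limits Cxcl11, with 3 to 71 counts, and Cxcl6 in control rats.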
